A study of Mus musculus with 3 samples.

Results

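The globins Hba-a1, Hba-a2 and Hbb-bs and the erythroid genes Alas2, Car2 and Lmo2 were followed clone by clone through a comparison of mouse liver and spleen RNA. They were chosen by symbol, as all spots whose single gene name in the platform annotation is one of these 6 symbols. That gave 50 of 16273 spots: 19 for Hbb-bs, 18 for Hba-a1, 9 for Hba-a2, 2 for Car2 and 1 each for Alas2 and Lmo2. On each of 3 two-colour cDNA arrays the spleen sample was labelled with Cy3 and the liver sample with Cy5, so the arrays form 1 group in which every array compares both tissues. Both RNAs were bought from Clontech as total RNA and, per the labels, passed through 2 rounds of amplification to cRNA. The sources used here give no strain, sex, age, pooling of animals or blood content of the tissues, and no array had its dyes exchanged, so dye and tissue cannot be told apart.

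The deposited value of a spot is a log2 ratio of the 2 channels. Positive ratios are likely liver over spleen. This rests on a hepatocyte list, in which Fgb and Ttr had values (medians of 4.55, 4.99 and 2.52 on arrays 1, 2 and 3), and on a lymphocyte list, in which Ms4a1, Ighm and Coro1a had values (medians of -3.06, -3.57 and -2.53). Ttr had a value on array 1 only, so the hepatocyte values of arrays 2 and 3 are those of Fgb alone. Coro1a had no value on array 3. An exact 0 stood for 19.7%, 31.7% and 6.53% of all spots on arrays 1, 2 and 3 and was treated as a missing ratio. Of the 50 spots studied here, 39 had a ratio on all 3 arrays, 3 on 2 arrays, 6 on 1 array and 2 on none. The labels do not say whether the arrays came from separate animals or RNA preparations, so the p-values reflect the scatter of these 3 arrays alone, and that scatter may be technical. In RNA of whole tissue, fewer red cells or precursors and less RNA per cell cannot be told apart.

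Haemoglobin of adult mice is a tetramer of alpha globin chains, encoded by Hba-a1 and Hba-a2, and beta globin chains, encoded in many strains by Hbb-bs and Hbb-bt. Each chain binds a haem, whose synthesis in erythroid cells starts with the mitochondrial enzyme Alas2. Lmo2 is a LIM-domain bridging protein in the transcription factor complex of blood-forming cells, and Car2 is the cytosolic carbonic anhydrase that hydrates carbon dioxide in red cells and other tissues. The adult mouse spleen makes red cells in its red pulp and also removes old ones, whereas the liver is a site of red cell production mainly before birth.

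The promoters of Hba-a1, Hbb-bs and Alas2 are shown here as background. Any link between their motifs and the ratios was not tested. The sequences are the 250 bases before the annotated start in RefSeq, build GRCm38.p6, read 5′ to 3′ on the strand of the gene. Hba-a1 lies at chr11:32283422-32283671 on the plus strand, Hbb-bs at chr7:103827929-103828178 on the minus strand, and Alas2 at chrX:150547167-150547416 on the plus strand. Capitals mark GATAA (bound by GATA factors), CACCC (bound by Kruppel-like factors), CCAAT and TATAA, searched on both strands.
Hba-a1: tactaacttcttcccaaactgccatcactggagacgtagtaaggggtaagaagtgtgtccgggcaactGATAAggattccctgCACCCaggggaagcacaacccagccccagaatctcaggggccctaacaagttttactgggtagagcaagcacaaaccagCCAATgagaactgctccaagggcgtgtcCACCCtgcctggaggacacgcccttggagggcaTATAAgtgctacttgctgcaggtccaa
Hbb-bs: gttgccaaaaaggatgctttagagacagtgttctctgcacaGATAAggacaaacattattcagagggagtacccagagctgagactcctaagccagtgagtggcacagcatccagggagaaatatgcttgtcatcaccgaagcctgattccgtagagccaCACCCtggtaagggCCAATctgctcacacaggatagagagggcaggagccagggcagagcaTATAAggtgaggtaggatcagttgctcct
Alas2: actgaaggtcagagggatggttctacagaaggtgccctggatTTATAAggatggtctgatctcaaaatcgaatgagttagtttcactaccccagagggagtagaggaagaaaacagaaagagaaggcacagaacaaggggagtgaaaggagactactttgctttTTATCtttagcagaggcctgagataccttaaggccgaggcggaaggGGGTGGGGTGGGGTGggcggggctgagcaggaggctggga

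All 4 motifs occurred in the Hba-a1 and Hbb-bs windows on the strand of the gene. TATAA began 27 bases before the start in Hba-a1 and 29 in Hbb-bs, CCAAT 88 and 76 bases before it, and the nearest CACCC 60 and 90 bases before it. Alas2 held GATAA on the opposite strand, 3 adjoining copies of CACCC on the opposite strand, and a TATAA that reads on both strands (overlapping matches) 207 bases before the start, but no CCAAT. Among 32851 windows of the same length, 22.6% held GATAA, 52.0% CACCC, 33.8% CCAAT and 22.8% TATAA on either strand. A match is only a run of letters, not a shown binding site. The Hba-a2 window was the same sequence as that of Hba-a1, shifted by 3 bases: all 297 bases that could be compared were identical, including those after the start. Of the 6 members, Hba-a1, Hba-a2, Hbb-bs and Alas2 had a window among the promoters used here, and Car2 and Lmo2 had none.

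Across the clones, the globins were higher in spleen. Of the 39 tested spots, 36 (92.3%) were called higher in spleen, 1 was called higher in liver and 2 were not called, where 29.6% of all 10614 tested spots were called higher in spleen and 28.7% higher in liver (limma, Benjamini-Hochberg adjusted p under 0.05). The 36 were all 19 tested alpha globin spots, 15 of 17 Hbb-bs spots and the tested Car2 and Lmo2 spots. The spot on the liver side was that of Alas2. Clones of 1 gene share their target and are not replicates of the tissues, so these counts describe how far the clones point the same way.

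Alpha globin Hba-a1 was 4.64-fold higher in spleen. Its gene means were -2.42, -2.29 and -1.93 on arrays 1, 2 and 3, a mean log2 ratio of -2.21 ± 0.25 (SD, n = 3 arrays; limma adjusted p = 0.000182 over 5731 genes, of which 27.8% were called higher in spleen and 27.1% higher in liver). Every array lay far on the spleen side. Of its 18 spots, 14 had a ratio on all 3 arrays. Their single values ranged from -3.00 to -1.85 on array 1 (median -2.38), from -3.22 to -1.58 on array 2 (median -2.19) and from -2.80 to -1.16 on array 3 (median -2.13). All values of these 14 spots lay below -1, on every array.

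The 14 Hba-a1 clones formed a continuous series of means. At the spleen end, AK011018 had -2.94, -2.90 and -2.35 on arrays 1, 2 and 3, with a mean of -2.73 ± 0.33 (adjusted p = 7.23e-05). AK010987 averaged -2.64, AK010933 -2.60, AK011063 -2.43, AK010923 -2.42 and AK010927 -2.41. These 6 lay below the others, though by steps smaller than the SD over arrays of most single clones. In the middle, AK011076 averaged -2.30, AK011023 -2.28, AK012329 -2.17, AK010937 -2.14, AK011028 -2.13 and AK011055 -2.05. AK011028 was the steadiest of the 14, with -2.14, -2.17 and -2.08. At the other end were AK003077 with -1.85, -1.76 and -1.55 (mean -1.72 ± 0.15) and AK011116 with -2.19, -1.58 and -1.16 (mean -1.64 ± 0.52). The arrays did not order alike from clone to clone: array 3 held the highest of the 3 ratios for 10 clones and the lowest for 3.

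The other 4 Hba-a1 spots were not tested. AK011116 was spotted a second time under the same accession, and that spot had a ratio on array 3 only, of -0.14, against -1.16 for the first spot on the same array. The 2 spots of this clone thus differed on the only array where both had a ratio. AK012755 also had a ratio on array 3 only, of -1.76. AK011025 and AK011056 were listed at exact 0 on every array. The sources used here do not say why spots have no ratio.

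Hba-a2, the second alpha globin gene, was 4.26-fold higher in spleen. Its gene means were -2.39, -2.37 and -1.52, giving -2.09 ± 0.50 (SD, n = 3; limma adjusted p = 0.00066). Arrays 1 and 2 were nearly equal and array 3 lay closer to 0. That gap moved with which spots had a ratio. The 5 spots with all 3 values averaged -2.54, -2.35 and -2.14, whereas 3 further spots with a ratio on array 3 stood at -1.36, -0.40 and 0.30 there, all above the highest of the 5 (-1.54). From the 5 spots alone the mean was -2.34 (adjusted p = 9.27e-05). When the variance was not moderated (each gene's own variance), the call from all spots was lost (adjusted p = 0.0600).

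Among the 5 complete Hba-a2 spots, AK005434 had -3.01, -2.81 and -2.24, with a mean of -2.69 ± 0.40. AK011073 averaged -2.56 ± 0.07, AK012348 -2.54 ± 0.42, AK010422 -2.13 ± 0.16 and AK011030 -1.79 ± 0.22. All 5 fell within the range of the Hba-a1 clones. Of the incomplete spots, AK002222 had only -2.45 on array 2, AK019138 had -1.87 and -1.36 on arrays 1 and 3, and AK011121 had -2.12 and -0.40 on the same arrays. AK010938 had only 0.30 on array 3, the single Hba-a2 value on the liver side. The gene means of Hba-a1 and Hba-a2 differed by -0.04, 0.08 and -0.41 (Hba-a1 minus Hba-a2) on arrays 1, 2 and 3, with no common sign. That rested on the incomplete spots. Complete spots alone averaged -2.42, -2.29 and -2.07 for Hba-a1, so Hba-a2 (-2.54, -2.35 and -2.14) was then slightly lower on every array. The genes are near-identical copies, and cDNA clones may not tell them apart.

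**Figure D1:**
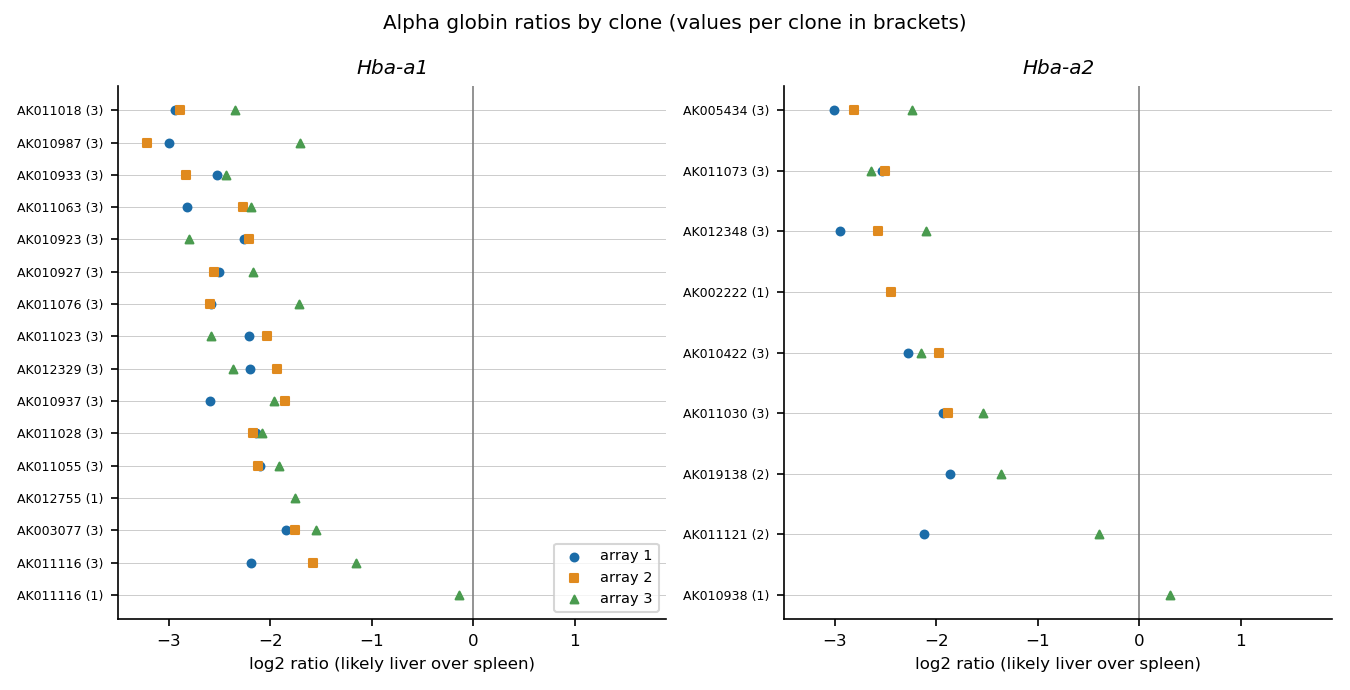
Log2 ratio (x axis, likely liver over spleen) of each clone with at least 1 value named for Hba-a1 (left) or Hba-a2 (right), one row per spot sorted by its mean, with circles, squares and triangles for arrays 1, 2 and 3 and the number of values in brackets. All values of the complete clones lie left of -1, and the values near 0 belong to spots with 1 or 2 ratios.

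Beta globin Hbb-bs was 3.07-fold higher in spleen. Its gene means were -2.00, -1.65 and -1.20, or -1.62 ± 0.40 (SD, n = 3; limma adjusted p = 0.000996). All 3 arrays were on the spleen side, array 1 furthest and array 3 least. With its own variance the gene was not called (adjusted p = 0.0631). Of 19 spots, 17 were complete, and their values ranged from -2.97 to -0.54 on array 1 (median -2.04), from -2.82 to 1.30 on array 2 (median -1.92) and from -2.01 to 0.18 on array 3 (median -1.36). Array 1 gave the lowest of the 3 ratios for 14 of the 17 clones. Array 3 also had the narrowest spread over all spots (SD 0.98, against 1.12 and 1.22 on arrays 1 and 2), and with arrays scaled to a common spread the gene mean was -1.65; the part of array scale in the order was not tested further.

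Most Hbb-bs clones lay between -2.36 and -1.09. AK005442 had -2.97, -2.82 and -1.29 (mean -2.36 ± 0.93), and AK010993 had -2.78, -2.56 and -0.93 (mean -2.09 ± 1.01). These 2 clones were far on the spleen side on arrays 1 and 2 and much less so on array 3. AK005490 averaged -2.13, AK010980 -2.05, AK011067 -2.01, AK011077 -1.99, AK011069 -1.97 and AK010981 -1.94. AK011069 (-1.97, -1.92 and -2.01) and AK011016 (-1.82, -1.94 and -1.83) hardly varied over the arrays, in contrast to AK005442 and AK010993. AK011016 averaged -1.87, AK010991 -1.81, AK011013 -1.67, AK003472 -1.60, AK011006 -1.56, AK011053 -1.49 and AK011027 -1.09. All 15 were called, with the largest adjusted p of 0.00364 for AK010993. AK010873 had -2.55 and -1.12 on arrays 2 and 3, and AK010902 had -1.06 on array 3.

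A pair of Hbb-bs clones stood apart. AK011102 had -0.68, 0.60 and 0.06 (mean -0.0046 ± 0.64, adjusted p = 0.988) and AK011083 had -0.54, 1.30 and 0.18 (mean 0.31 ± 0.92, adjusted p = 0.447). Both followed the same order over the arrays, lowest on array 1 and highest on array 2, and both were the only complete Hbb-bs spots with a value above 0. The sign of their means rested on 1 array: AK011102 averaged 0.33 without array 1, and AK011083 averaged -0.18 without array 2. With both left out, a choice made after their values were seen, the gene mean was -1.84 (adjusted p = 0.000742).

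**Figure D2:**
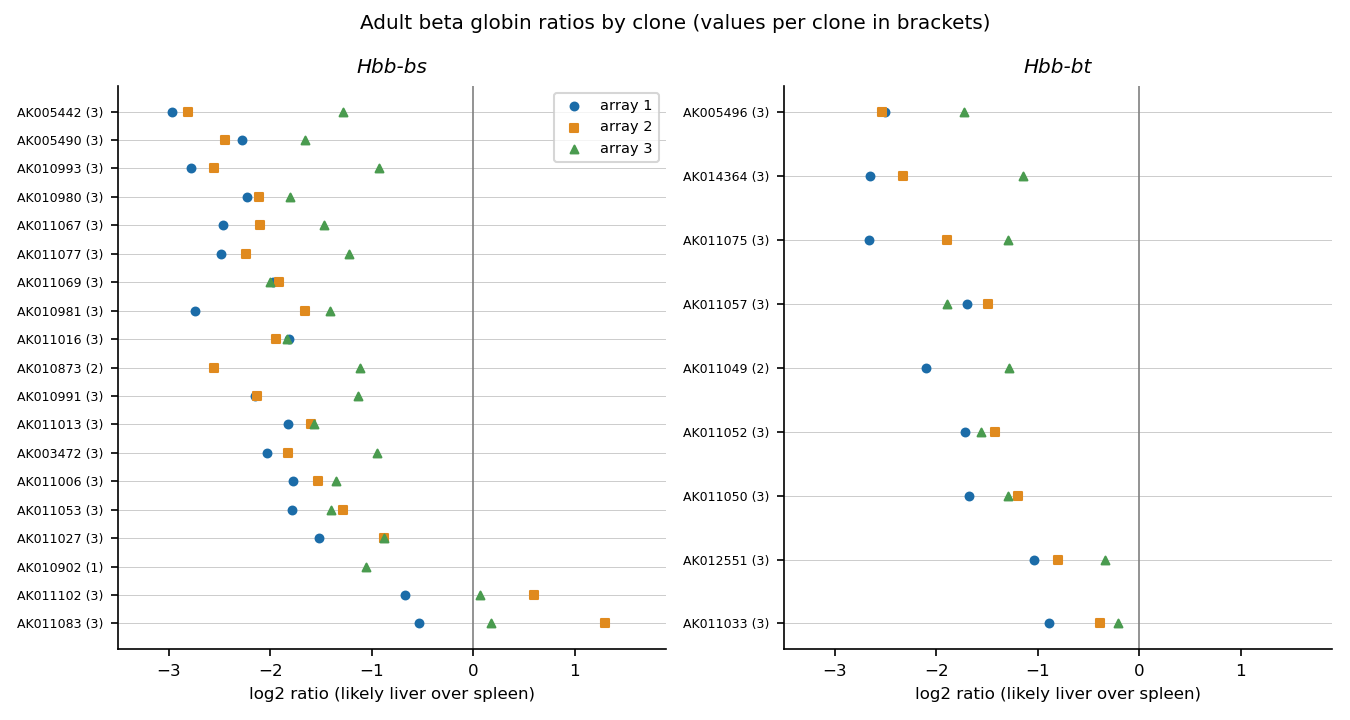
Log2 ratio (x axis, likely liver over spleen) of each clone named for Hbb-bs (left) or its neighbour Hbb-bt (right), one row per spot sorted by its mean, with circles, squares and triangles for arrays 1, 2 and 3 and the number of values in brackets. AK011102 and AK011083 straddle 0, apart from the other Hbb-bs clones, and AK012551 and AK011033 are the Hbb-bt clones nearest 0.

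Whether spots named for 1 gene differ was tested on all pairs of complete spots of the same gene (limma on the difference on each array, adjusted p under 0.05). Of 6005 pairs from 1478 genes, 17.4% differed. Each globin clone entered with 1 complete spot, so differences between clones and between spots cannot be told apart. Pairs of 1 gene share spots and are not separate comparisons, and genes with many spots weigh more in the 17.4%. For Hbb-bs, 36 of 136 pairs (26.5%) differed, and 30 of the 36 contained AK011102 or AK011083. Each of these 2 differed from all the other 15 clones, and they did not pass the test against each other (mean difference of -0.32 for AK011102 minus AK011083, adjusted p = 0.286). Of the 105 pairs without these 2 clones, a choice made after their values were seen, 6 (5.71%) differed. AK011027, the clone with the highest mean among those left, was in 5 of them. The largest difference between any 2 Hbb-bs clones was 2.67. With each pair's own variance no pair of any gene was called (1260 of 6005 at an unadjusted p under 0.05, 23 of them for Hbb-bs, against 1855 and 59 in the moderated test).

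The alpha globin clones were compared in the same fit. For Hba-a1, 9 of 91 pairs (9.89%) differed, beside 17.4% of the pairs of all genes. The median absolute difference over the 91 pairs was 0.31 and the largest 1.09, between AK011116 and AK011018. All 9 contained AK003077, AK011116 or AK011018, the clones at the ends of the series, named after the calls were seen. Large differences fall at the ends of a series, so this is no separate result. The number of Hba-a1 pairs that differed was 2, 5 and 4 without arrays 1, 2 and 3 respectively, and 49 where exact zeros were kept as values. For Hba-a2, 3 of 10 pairs (30%) differed, each of them containing AK011030, the complete clone with the highest mean. The SD of the clone means was 0.32 for Hba-a1, 0.37 for Hba-a2 and 0.73 for Hbb-bs, against a median of 0.32 over the 108 genes with at least 5 complete spots. Ranked from the smallest SD, Hba-a1 was 54th, Hba-a2 60th and Hbb-bs 91st of the 108. Without AK011102 and AK011083, a choice made after their values were seen, the SD for Hbb-bs was 0.31. Leaving out the clones furthest from the rest must lower the SD, and the median of 0.32 is from genes without such a choice.

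**Figure D3:**
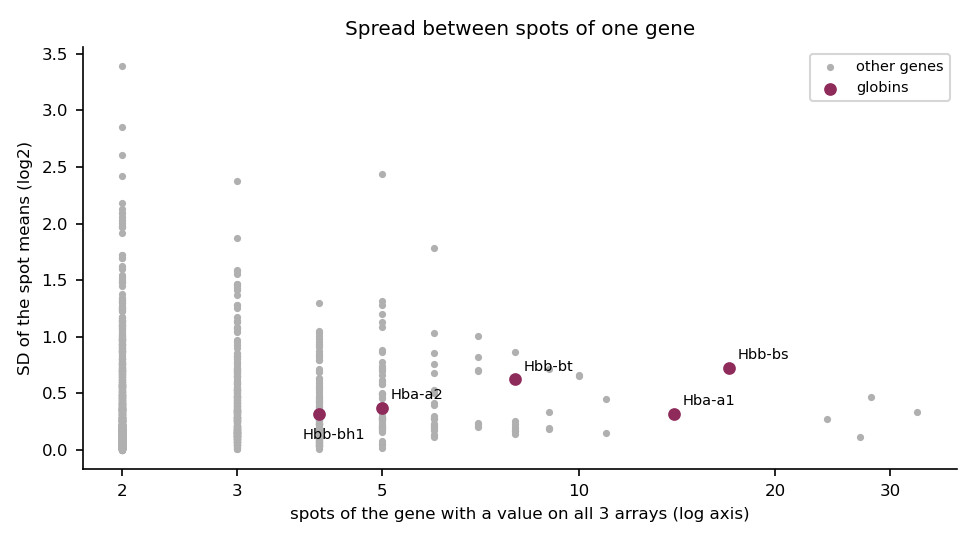
SD of the spot means (y axis, log2) against the number of complete spots of a gene (x axis, log scale) for the 1478 genes with at least 2 complete spots, with globins as large points. Hba-a1 (0.32) lies at the level of the median gene with 5 or more spots, and Hbb-bs (0.73) above it.

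The other globins on the array give the context. Hbb-bt, the adult beta globin gene next to Hbb-bs, had gene means of -1.88, -1.51 and -1.20 (-1.53 ± 0.34, adjusted p = 0.000891), close to Hbb-bs on every array, with differences (Hbb-bs minus Hbb-bt) of -0.12, -0.14 and -0.01. Its 8 complete spots were all called higher in spleen, from AK005496 (-2.26 ± 0.46) to AK011033 (-0.50 ± 0.36). They disagreed in size in 12 of 28 pairs (42.9%), beside 17.4% of the pairs of all genes. Of the 12, 11 contained AK011033 or AK012551 (-0.72 ± 0.36), the complete clones with the highest means. A further pair of spots is annotated to several beta globin genes at once: AK011062 had -2.16 ± 0.56 and AK011119 -0.76 ± 0.78, the latter not called (adjusted p = 0.0613). The cDNA clones may not tell Hbb-bs and Hbb-bt apart, which was not tested, so the closeness of these genes is not independent.

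The embryonic globins lay near 0. Hbb-bh1, expressed in early embryonic red cells, had gene means of -0.47, -0.08 and -0.02 (-0.19 ± 0.24, 95% interval of the limma fit -0.54 to 0.16, adjusted p = 0.29), although 2 of its 4 complete spots were called higher in spleen, AK011309 (-0.61 ± 0.35) and AK012442 (-0.48 ± 0.16). Hbb-y, the epsilon-type embryonic chain, had -0.22, 0.57 and 0.11 (0.15 ± 0.40, interval -0.29 to 0.60, adjusted p = 0.491), with no complete spot among 3. The difference of gene means was -1.96, -2.21 and -1.91 on the 3 arrays for Hba-a1 minus Hbb-bh1, and -1.54, -1.57 and -1.18 for Hbb-bs minus Hbb-bh1. Cytoglobin Cygb, an oxygen-binding protein of fibroblast-like cells, was slightly higher in liver (0.37 ± 0.08, adjusted p = 0.0408).

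The alpha globin genes had lower means than Hbb-bs, by an amount that depended on its clones AK011102 and AK011083 and on incomplete spots. The difference of gene means on arrays 1, 2 and 3 was -0.42, -0.64 and -0.73 for Hba-a1 minus Hbb-bs, and -0.38, -0.72 and -0.31 for Hba-a2 minus Hbb-bs. Without these clones, a choice made after their values were seen, the differences were -0.23, -0.31 and -0.57 for Hba-a1 and -0.20, -0.39 and -0.16 for Hba-a2, so that the mean difference went from -0.59 ± 0.16 to -0.37 ± 0.18 (SD) for Hba-a1 and from -0.47 ± 0.21 to -0.25 ± 0.12 for Hba-a2. The order was the same on all arrays in both cases, but 3 arrays allow no exact sign-flip p under 0.25. Complete spots alone averaged -2.54, -2.35 and -2.14 for Hba-a2 and -2.00, -1.60 and -1.22 for Hbb-bs on arrays 1, 2 and 3. The difference between Hba-a2 and Hbb-bs was then largest on array 3, where it was smallest from all spots. A difference between ratios of 2 genes does not compare their levels.

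Alas2, the first enzyme of erythroid haem synthesis, was the only member higher in liver. Its 1 clone, AK002642, had 0.83, 1.53 and 0.36 on arrays 1, 2 and 3, or 0.91 ± 0.59 (SD, n = 3), a 1.88-fold difference (limma adjusted p = 0.0216). All 3 values were above 0, but the highest was more than 1 log2 unit above the lowest. The call was lost without array 1 (mean 0.95, adjusted p = 0.0978), with exact zeros as values (0.0922) and with the gene's own variance (0.191), and the adjusted p ran from 0.00848 to 0.191 over the alternatives. No second clone was named for Alas2, so no other spot could be set beside it. The difference of gene means (Hba-a1 minus Alas2) was -3.25, -3.82 and -2.29 on the 3 arrays.

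Car2 was 5.47-fold higher in spleen. The clone AK002333 had -2.78, -2.62 and -1.99, a mean of -2.46 ± 0.42 (adjusted p = 0.000149), and AK002498 had a ratio on array 3 only, of -1.92, close to the first clone on that array. The gene means were -2.78, -2.62 and -1.95 (-2.45 ± 0.44, limma adjusted p = 0.000316). With exact zeros as values the mean shrank to -1.55 (adjusted p = 0.0105), since the second clone then counted as 0 on arrays 1 and 2.

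Lmo2 had the lowest gene mean of the 6. Its 1 clone, AK013416, had -2.74, -2.34 and -2.41, a mean of -2.50 ± 0.21 (SD, n = 3) or 5.64-fold higher in spleen (limma adjusted p = 0.000105). From the lowest up, the order of the gene means was Lmo2, Car2, Hba-a1, Hba-a2, Hbb-bs and Alas2. With complete spots alone, Hba-a2 (-2.34) lay below Hba-a1 (-2.26). Lmo2 and Car2 did not differ beyond their spread over arrays (0.04 ± 0.37, Car2 minus Lmo2, SD), nor did Hba-a1 and Hba-a2 (-0.12 ± 0.26). Car2 lay below Hba-a1 on every array, with differences (Hba-a1 minus Car2) of 0.36, 0.33 and 0.02, and Hba-a2 lay below Hbb-bs (-0.47 ± 0.21, Hba-a2 minus Hbb-bs).

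**Figure D4:**
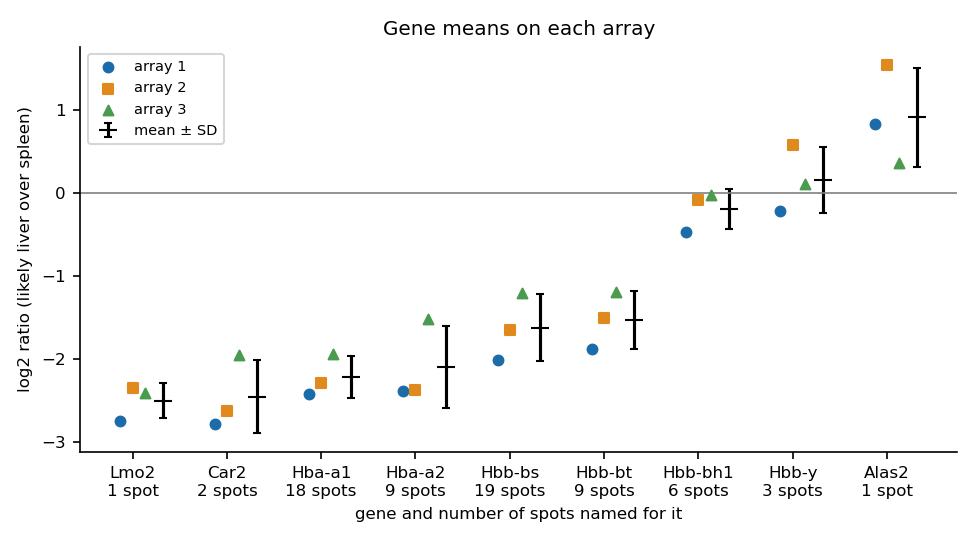
Gene mean log2 ratio (y axis, likely liver over spleen) on arrays 1, 2 and 3 (circles, squares, triangles) with the mean ± SD over arrays as a bar, for the 6 members and the other haemoglobin genes Hbb-bt, Hbb-bh1 and Hbb-y. The adult globins, Car2 and Lmo2 lie below -1 on every array, the embryonic globins near 0 and Alas2 above 0.

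The genes with the most similar 3 ratios were found for each member by the root mean square difference over the 3 arrays, among 5731 genes. For Hba-a1 these were Adamdec1 (difference 0.09) and Trpv2 (0.11), and for Hba-a2 Grap and Stambpl1 (0.14 and 0.15). For Hbb-bs they were Lig1 and Hbb-bt (both 0.11), the latter a gene that cDNA clones may not tell apart from Hbb-bs. A globin was thus among the nearest genes of 1 member. For Alas2 they were Rnf4 (0.03) and Tlcd3a (0.08), for Car2 Panx1 (0.10) and Gata6 (0.15), and for Lmo2 Ska1 (0.08) and Rabgap1l (0.09). With 3 arrays this measure is mostly the size of the ratio.

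Tested genes of the wider erythroid lists were called on both sides. From 9 lists holding 158 genes, 52 genes could be tested, of which 22 (42.3%) were called higher in spleen, 15 (28.8%) higher in liver and 15 were not called, beside 27.8% and 27.1% of all genes. The share higher in liver was close to that of all genes, so it is not read as a trait of the lists. The median was -0.19, against -0.03 over all genes tested. Leaving out the 6 members, 17 of 46 (37%) were called higher in spleen and 14 (30.4%) higher in liver. With each gene's own variance the counts of the full lists were 8 and 8.

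Of 6 tested haem synthesis genes of 16 listed, 3 were called higher in liver, Alas2 included, and 3 were not called (median 0.51), beside 27.1% of all genes called higher in liver. Slc25a39, a mitochondrial carrier, was the furthest, with 1.74, 1.76 and 1.32 over 6 spots (1.61 ± 0.25, adjusted p = 0.000456). Tmem14c, which moves a porphyrin intermediate into mitochondria, averaged 0.52 ± 0.26 (adjusted p = 0.027). Not called were the decarboxylase Urod (0.13 ± 0.01), ferrochelatase Fech (0.18 ± 0.20), which inserts the iron, and the mitochondrial transporter Abcb10 (0.49 ± 0.67).

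Iron and haem recycling genes had calls on both sides. Of 7 tested iron handling genes, with a median of 0.68, 4 were called higher in liver and 1 was called higher in spleen. Over all genes, 27.1% were called higher in liver and 27.8% higher in spleen. The ferritin light chain Ftl1 (1.33 ± 0.19), the iron-sulphur scaffold Iscu (1.02 ± 0.16) and the transferrin receptor Tfr2 (0.93 ± 0.64), which is known from hepatocytes and erythroid precursors, were on the liver side. The iron exporter Slc40a1, abundant in macrophages that recycle red cells, was higher in spleen (-0.89 ± 0.09). Of 3 haem breakdown and scavenging genes, biliverdin reductase Blvra was higher in spleen (-0.66 ± 0.14), the scavenger receptor Lrp1 higher in liver (1.07 ± 0.38), and the list median was -0.29.

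Of 9 tested transcription factors of the erythroid list, with a median of -0.80, 5 were called higher in spleen and 4 were not called, beside 27.8% of all genes called higher in spleen. Besides Lmo2 the 5 included the chromatin protein Hmgb2 (-2.04 ± 0.33), Tcf3 (-1.52 ± 0.27), an E protein that pairs with Tal1, and the GATA cofactor Zfpm1 (-0.80 ± 0.66, adjusted p = 0.0426). Among the 4 not called was Bcl11a, a repressor of fetal-type globin genes, at -2.14, -0.45 and -0.27 (-0.95 ± 1.03, adjusted p = 0.0788), chosen after its values were seen because its mean lay further out than that of Zfpm1. Gata2 (-0.02 ± 0.35), Klf3 (-0.02 ± 0.06) and E2f4 (0.03 ± 0.19) were also not called. Hmgb2 and Tcf3 are also used by dividing and lymphoid cells. Of 2 signalling genes, the erythropoietin receptor Epor was higher in spleen (-0.49 ± 0.13, adjusted p = 0.0174).

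Membrane genes, red cell enzymes and carbonic anhydrases each had calls on both sides. Of all genes, 27.8% were called higher in spleen and 27.1% higher in liver, and these small lists were not tested as sets. Of 6 membrane genes, with a median of -0.28, 3 were called higher in spleen and 2 were called higher in liver: the actin-capping Tmod3 (-1.83 ± 0.31) and the adducin Add3 (-1.44 ± 0.43) against the complement regulator Cd59a (1.46 ± 0.08) and basigin Bsg (1.04 ± 0.15). Of 5 enzyme and maturation genes, with a median of -0.86, 4 were called on the spleen side and 1 on the other. The nucleotidase Nt5c3 (-1.91 ± 0.48), the mitophagy receptor Bnip3l (-1.63 ± 0.07) and Trim10 (-0.86 ± 0.26), which is expressed in terminal erythroid cells, were on the spleen side, and the peroxidase Gpx1 (1.51 ± 0.07) on the other. Of 7 carbonic anhydrases, with a median of -0.42, 3 were called on each side. Car1, a red cell isoform, followed Car2 (-1.88 ± 0.43), whereas the membrane-bound Car14 (1.47 ± 0.32) and the mitochondrial Car5b (1.00 ± 0.32) were higher in liver.

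**Figure D5:**
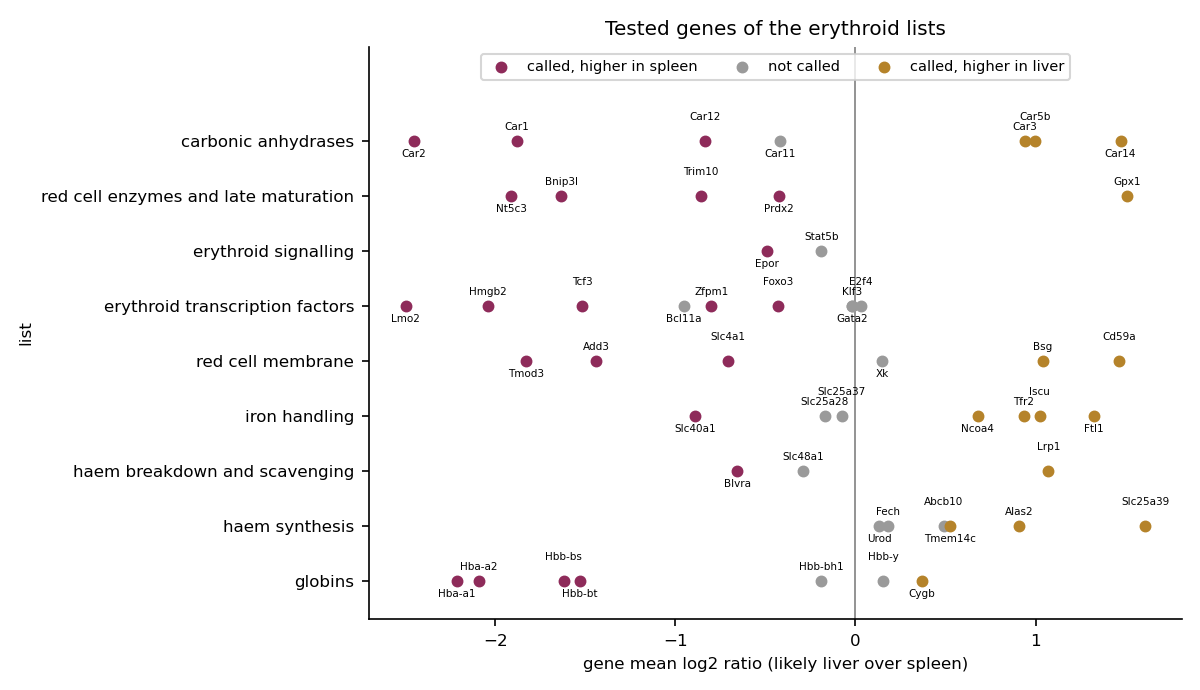
Gene mean log2 ratio (x axis, likely liver over spleen) of each tested gene in the 9 erythroid lists (y axis), coloured by whether it was called higher in spleen, higher in liver or not called. The adult globins and the called transcription factors lie left of 0, and the 6 haem synthesis genes right of it.

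Defining markers of other blood lineages give values to set beside those of the globins. Of 10 erythroid markers, 6 were tested, and 3 of these are members (Hba-a1, Hbb-bs and Alas2). The other 3 were called higher in spleen, beside 27.8% of all genes, namely the band 3 anion exchanger Slc4a1 at -1.02, -0.82 and -0.27 (-0.71 ± 0.39), Car1 and Epor. Granulocyte markers had 2 tested genes of 8, Ngp (-3.68 ± 0.31) and S100a9 (-3.21 ± 0.76), and the platelet list also 2 of 8, Tubb1 (-3.22 ± 0.35) and Clec1b (-0.48 ± 0.28). All 4 were called higher in spleen, with Ngp, S100a9 and Tubb1 further from 0 than any of the 6 members. Of the red pulp macrophage list only Slc40a1 was tested, and of the endothelial list only Eng (0.36 ± 0.21, not called). Car2 and Lmo2 are also expressed outside the erythroid line, and the part of other cell types in their ratios was not tested.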

How the data were processed

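Liver and spleen RNA were compared on 3 two-colour cDNA arrays. The values deposited for each spot are log2 ratios; their base follows from an upper limit of exactly 100-fold. Numerator, background correction and normalization: not given in the sources used here. Channel intensities were not used, so signal over background is unknown, and 3 arrays limit the precision. Exact zeros were treated as missing.

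Gene names came from the platform annotation and were brought up to date through RefSeq (GRCm38.p6; 12228 of 12397 Entrez identifiers matched). Spots with 1 gene symbol (12336) were averaged per gene and array. Genes (5731), spots (10614) and differences between 2 spots of a gene (6005) with values on all 3 arrays were each fitted with limma 3.58.1 in R 4.3.3 (intercept, eBayes, two-sided, Benjamini-Hochberg, called under 0.05), and the fit was tested on simulated data. Errors are SDs over arrays.

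The members, lists and rules were chosen with earlier results of these data known. Named genes are the members, all tested genes of the globin and haem synthesis lists, up to 4 called genes of each other list, defining markers, and the 2 genes nearest each member. The transcription factors that were not called were added later. Alternatives were zeros as values, values on 2 arrays, complete spots, the median of spots, no AW or AU clones, centring, scaling, own variance, platform symbols, leaving out each array, and, added later, Hbb-bs without 2 clones.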

Additional observations from a re-analysis of the deposited data

How the results depend on the processing

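Hba-a1, Car2 and Lmo2 kept their direction and their call under all 12 alternatives, with means from -2.36 to -1.79, -2.70 to -1.55 and -2.61 to -2.38. Hba-a2 (-2.38 to -1.59) and Hbb-bs (-1.84 to -1.43) kept their direction and lost their call only under their own variance (means unchanged at -2.09 and -1.62; adjusted p = 0.0600 and 0.0631). Alas2 stayed above 0 (0.59 to 1.18) and was not called under its own variance or with zeros as values (0.91 in both) or without array 1 (0.95). With 1 array left out, clones AK011102 (-0.31 to 0.33, highest without array 1) and AK011083 (-0.18 to 0.74, lowest without array 2) changed sign. Under own variances 1461 genes, 3122 spots, 8 listed erythroid genes higher in spleen and 8 higher in liver were called, and 0 spot pairs (limma fit, 1260 at an unadjusted p under 0.05). With arrays left out in turn, gene calls ran from 1873 (without array 1) to 3168 and spot pair calls from 612 (without array 3; 617 without array 1) to 930, against 3146 and 1046 with all arrays. With zeros as values 1733 spot pairs were called. Over the member genes and the counts, 107 alternative values kept their direction and side of the threshold or stayed within 1.5 times the count; the 14 others are those given here. The arrays form 1 group, each holding both tissues, so the fit of the ratios against 0 already compared the tissues within arrays. Own variance rests on 2 residual degrees of freedom; why it ends the calls was not tested further.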
